A study of Mus musculus with 10 samples.

Results

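Genes of the respiratory chain and ATP synthase were examined in mouse esophageal epithelium after loss of the Hippo pathway kinases Mst1 and Mst2. The members were the rows of the expression table whose symbols match the names of genes of complexes I to V. They included the subunits encoded by mitochondrial DNA and excluded symbols with the pseudogene mark -ps. Rows without that mark stayed in, among them Ndufs6b, Ndufb4c and Ndufa11b, which are listed as processed pseudogenes. The rule gave 104 of 56691 rows, 13 mitochondrially encoded and 91 nuclear-encoded, with 103 different symbols because Atp5o is listed on 2 rows.

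Wild-type mice (WT, 5 libraries) were compared with p63CreERT2;Mst1loxp/loxp;Mst2-/- mice (KO, 5 libraries). Both groups received tamoxifen at 100 mg/kg in 3 doses, 2 weeks apart, and epithelial RNA was taken about 8 weeks later. The knockout thus combined Mst2 null alleles present in every cell, floxed Mst1 alleles and a tamoxifen-inducible Cre driven by p63, which marks basal cells of squamous epithelium, whereas the wild-type label lists none of these alleles. Muscle and adventitia had been stripped off and mesenchyme removed after Dispase digestion. The labels do not say whether each library came from its own mouse, and p-values then reflect only the variation among these samples, which may be technical.

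The respiratory chain passes electrons from NADH and succinate to oxygen through complexes I to IV and pumps protons across the inner mitochondrial membrane, and ATP synthase (complex V) uses that gradient to make ATP. Complex II is encoded in the nucleus alone, while complexes I, III, IV and V combine nuclear subunits with a few made inside the mitochondrion from its own DNA. Mitochondrial genes are transcribed together as long precursors that are cut into single RNAs, and nuclear subunits are transcribed one by one and imported as proteins.

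Values were FPKM, that is fragments scaled by gene length and library total, so levels of different genes are comparable only on that per-length scale. Depth estimated from the values was 13070000 to 16440000 fragments per library, and 10878 to 11606 genes reached 1 FPKM. Mst2 (symbol Stk3) was at 2.62 ± 0.521 FPKM in WT libraries and 0.134 ± 0.0862 FPKM in KO libraries (SD, n = 5 each). Mst1 (symbol Stk4) was at 19.3 ± 2.41 and 15.6 ± 2.00 FPKM, and its log2 fold change of -0.29 did not pass the threshold (limma, adjusted p = 0.123). Of the markers of other tissues, the 16 striated muscle genes summed to 5.07 to 6.76 FPKM in WT libraries. In KO libraries they summed to 6.65 to 11.9 FPKM, and 7 of 16 were at 0 in every library. Fat markers summed to 14.03 to 30.38 FPKM in WT and 7.92 to 22.41 FPKM in KO libraries. Immune markers summed to 5.13 to 31.76 and 5.09 to 15.94 FPKM, and nerve and glia markers to 0.93 to 11.88 and 5.19 to 21.85 FPKM. Fat, immune, nerve and glia markers were not part of the marker score used below. The squamous markers summed to 58433 FPKM or more for the suprabasal genes Krt13, Krt4, Sbsn and Krt78 and to 2911 FPKM or more for the basal genes Krt5, Krt14, Krt15 and Trp63.

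Several members have near-identical copies elsewhere in the genome, and reads from such stretches cannot be assigned to one locus by sequence. The following stretches, each 60 bases of coding sequence read from GENCODE M21 on GRCm38, show how close the copies are. The first 60 coding bases of mt-Co3, subunit III of cytochrome c oxidase, are the same in Gm28437, a nuclear copy on chromosome 1. The 2 sequences are identical over all 783 aligned bases.
mt-Co3 and Gm28437: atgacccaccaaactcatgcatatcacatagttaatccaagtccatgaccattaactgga
The start of mt-Cytb, the only mitochondrially encoded subunit of complex III, differs from its closest copy, Gm11410, at 3 of 60 bases, printed in capitals. Over the whole gene 92.8% of 1143 aligned bases are identical.
mt-Cytb: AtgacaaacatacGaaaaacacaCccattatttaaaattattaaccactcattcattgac
Gm11410: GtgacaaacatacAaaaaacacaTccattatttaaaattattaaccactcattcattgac
Ndufs5, an accessory subunit of complex I, and its copy Ndufs5-ps on chromosome 16 share 317 of 319 aligned bases, among them this stretch.
Ndufs5 and Ndufs5-ps: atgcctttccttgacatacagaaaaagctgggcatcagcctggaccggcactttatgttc
Cox7a2l, a factor that joins complexes III and IV into supercomplexes, has a copy, Gm6969, on chromosome 12. Aligned without gaps, 230 of 342 bases (67.3%) are identical. Such an alignment can count bases beyond an insertion or deletion as different, so this share may understate how close the copy is. Both sequences hold this stretch.
Cox7a2l and Gm6969: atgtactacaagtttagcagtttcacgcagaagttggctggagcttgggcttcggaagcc

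After a filter of at least 1 FPKM in at least 5 libraries, 92 members were tested, all 13 mitochondrial and 79 nuclear, among 11386 genes. Of the 12 others, 6 were listed at 0 in all libraries: Cox6a2, Cox7b2, Cox8b, Cox8c, Ndufb11b and the second Atp5o row. The remaining 6 were Ndufs5, Cox4i2, Cox6b2, Cox7a1, Ndufa11b and Ndufb4c. With an adjusted p below 0.05 as the threshold (limma on log2(FPKM + 1), Benjamini-Hochberg over all genes tested), 8 members were higher and 3 lower in knockout, which is 12% of those tested. Over all genes tested the share was 12.9%, with 7.9% higher and 4.96% lower, so the members were called about as often as other genes. The values of the 2 groups did not overlap for 10.9% of tested members (8 higher, 2 lower) and for 10.5% of all genes (6.62% higher, 3.88% lower). In bulk RNA, fewer cells of a type and less RNA per cell cannot be told apart.

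The nuclear and mitochondrial members lay on opposite sides of 0. Of 79 nuclear members, 71 (89.9%) had a positive log2 fold change, against 58.6% of all genes, and their median was 0.23 against 0.06 for all genes. All 13 mitochondrial members had a negative one, with a median of -0.32, and 0 of them passed the threshold (limma), while 5 had an unadjusted p below 0.05. These medians are descriptions, since genes measured in the same libraries are not independent. An unadjusted p below 0.05 was common among all genes, as the adjusted p was as low as 0.161 at an unadjusted p of 0.0466 (limma, Cox7c). Counts of members with an unadjusted p below 0.05, here and further below, are therefore not read as an excess. When libraries were scaled by median ratios instead, 60 of 79 nuclear members were positive beside 49.9% of all genes, and the medians became 0.17 for nuclear and -0.39 for mitochondrial members. That scaling shifted the median of all genes from 0.06 to 0.00 and gave 4 members higher and 7 lower. Of the 7 lower, 4 were mitochondrial (mt-Nd2, mt-Nd4, mt-Cytb and mt-Atp6), so the absence of mitochondrial calls depended on the scaling.

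**Figure D1:**
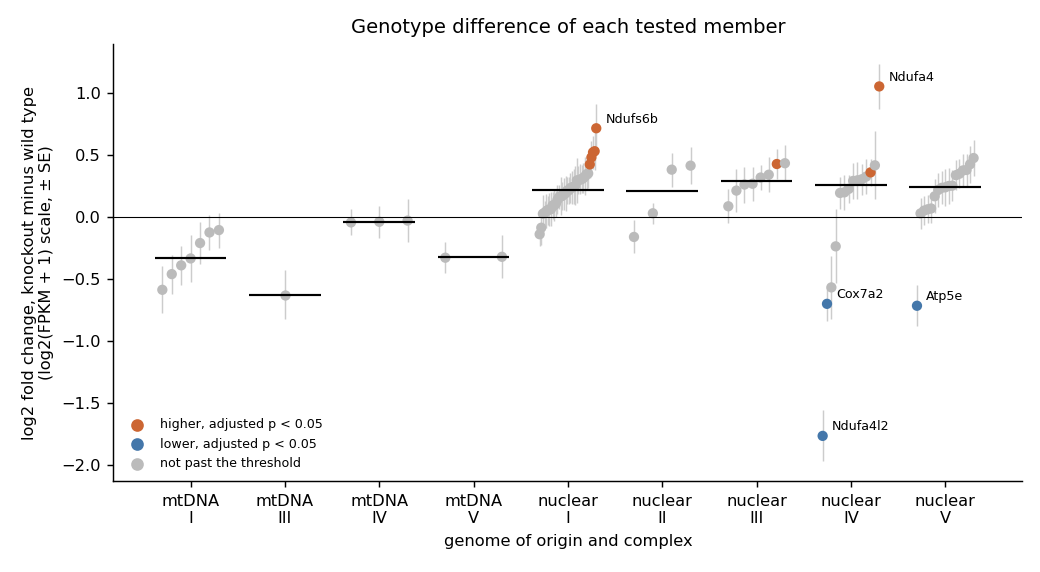
Log2 fold change (knockout minus wild type, log2(FPKM + 1) scale) with its standard error for each of 92 tested members, by genome of origin and complex; black lines are medians and coloured points passed an adjusted p of 0.05 (limma). All 13 mitochondrial points lie below 0 and none is coloured, while 71 of 79 nuclear points lie above 0; Ndufa4 is the highest point and Ndufa4l2 the lowest.

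By complex, the nuclear medians were close to each other. Complex I had 36 tested nuclear members with a median log2 fold change of 0.21, of which 5 were higher and 0 lower. The 4 members of complex II had a median of 0.20; 0 were called and 2 had an unadjusted p below 0.05 (limma). Complex III had 8 tested members, all with a positive value, a median of 0.29 and 1 call. Complex IV had 14 with a median of 0.26, of which 2 were higher and 2 lower, and complex V had 17 with a median of 0.24 and 1 lower. Ndufa4 and Ndufa4l2 were counted in complex IV, which without them had 12 tested members, 1 higher and 1 lower. The mitochondrial medians ranged more widely, at -0.34 for the 7 genes of complex I and -0.63 for mt-Cytb of complex III. They were -0.04 for the 3 of complex IV and -0.33 for the 2 of complex V. The medians of complexes I, IV and V include genes shared almost fully with copies: mt-Nd3, mt-Nd4l, mt-Co2, mt-Co3 and mt-Atp6.

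The level of the nuclear members differed between libraries of the same genotype. Their mean log2(FPKM + 1) was 4.88 in WT1 and 4.83 in WT5, against 5.28, 5.13 and 5.15 in WT2, WT3 and WT4. In knockout it was 5.33, 5.37, 5.22, 5.08 and 5.18 in KO1 to KO5, so the groups overlapped, WT2 lying above KO3, KO4 and KO5. WT1 or WT5 held the lowest of the 10 values for 65 of 79 nuclear members (82.3%), against 28.4% of all genes tested. With both left out, 58 of 79 nuclear members were positive beside 58.7% of all genes. The nuclear median was then 0.08 beside 0.05 for all genes, and 1 member was higher and 3 lower. Because these were the lowest wild-type libraries for the nuclear members, leaving them out makes the difference smaller by construction. That fit is therefore no independent check of the difference. Leaving out 1 library at a time gave 1 higher member without WT1, WT5 or KO5, 2 without KO1 or KO2, 3 without KO3 and 20 without WT2. The count of lower members was 5 without WT2, 7 without WT3 and 3 in each of the other cases.

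**Figure D2:**
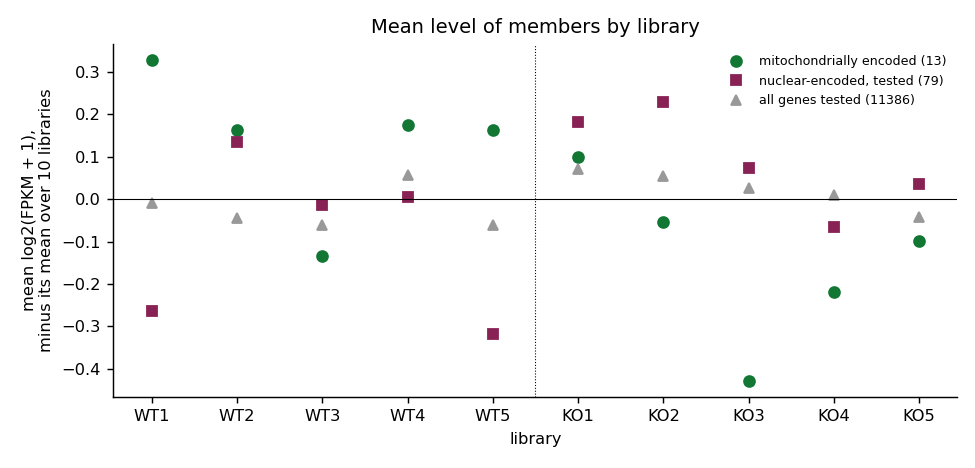
Mean log2(FPKM + 1) of the 13 mitochondrial members, the 79 tested nuclear members and all 11386 tested genes in each library, each minus its own mean over 10 libraries; the dotted line separates the genotypes. WT1 and WT5 are lowest for the nuclear members (4.88 and 4.83) and KO3 is lowest for the mitochondrial members (8.11).

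A score over striated muscle, smooth muscle, fibroblast and endothelial markers (mean log2(FPKM + 1)) was 0.305 ± 0.0198 in wild type and 0.260 ± 0.0269 in knockout (SD, n = 5), and this difference came from 1 gene. The fibroblast gene Dcn, a matrix proteoglycan, fell from 8.59 ± 3.93 to 0.308 ± 0.459 FPKM (limma, adjusted p = 8.62e-05). Without Dcn the score was higher in knockout, at 0.258 ± 0.0258 against 0.221 ± 0.0139, and the striated muscle gene Mylpf, a myosin light chain, rose from 1.73 ± 0.442 to 2.99 ± 0.701 FPKM (limma, adjusted p = 0.0364). The defining genes were low: 5 of 5 endothelial, 6 of 7 fibroblast, 6 of 7 smooth muscle and 13 of 16 striated muscle markers stayed below 1 FPKM in every library. With the score as a covariate, 0 members were higher and only Ndufa4l2 was lower, and 63 of 79 nuclear members were positive beside 66.8% of all genes. With the score without Dcn, 4 members were higher and 3 lower, 64 of 79 nuclear members were positive beside 51.2% of all genes, and the nuclear median was 0.23. The part of cells of other tissues in the result was not tested beyond these fits.

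The largest changes among the members concerned Ndufa4 and Ndufa4l2. NDUFA4 was first described in complex I and is now known as a subunit of complex IV, and NDUFA4L2 is a related protein known as a target of the hypoxia-inducible factor HIF-1. Ndufa4 was at 129, 185, 245, 155 and 126 FPKM in WT1 to WT5 and at 349, 342, 391, 280 and 337 FPKM in KO1 to KO5. Every knockout library lay above every wild-type library. The log2 fold change was 1.05 with a standard error of 0.18 (limma, adjusted p = 0.00311). Ndufa4l2 was at 298, 175, 157, 170 and 213 FPKM in WT libraries and at 46.3, 78.4, 46.3, 50.3 and 71.9 FPKM in KO libraries. Here the groups did not overlap either, with the knockout below, and the log2 fold change was -1.77 with a standard error of 0.21 (limma, adjusted p = 0.000202).

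In all 5 knockout libraries Ndufa4 was the more abundant of the 2 genes, and in 3 of 5 wild-type libraries it was the less abundant. The ratio of Ndufa4 to Ndufa4l2 FPKM was 0.433, 1.06, 1.56, 0.911 and 0.594 in the wild-type libraries and 7.55, 4.36, 8.44, 5.56 and 4.69 in the knockout libraries. Its means were 0.912 ± 0.440 and 6.12 ± 1.79 (SD, n = 5). Both calls were kept in 10 of 10 fits that left out 1 library. Ndufa4l2 also passed in 14 of 14 other settings and Ndufa4 in 13 of 14, the exception being the marker covariate that includes Dcn.

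AA467197, which RefSeq lists as Nmes1, encodes another protein of the same family and lies outside the rule; it was chosen after its values were seen. It was at 3.20, 3.29, 0.87, 2.98 and 2.33 FPKM in WT libraries and 1.27, 0.35, 0.30, 0.00 and 0.99 FPKM in KO libraries. WT3 lay among the knockout values, and the log2 fold change was -1.16 with a standard error of 0.27 (limma, adjusted p = 0.0167).

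**Figure D3:**
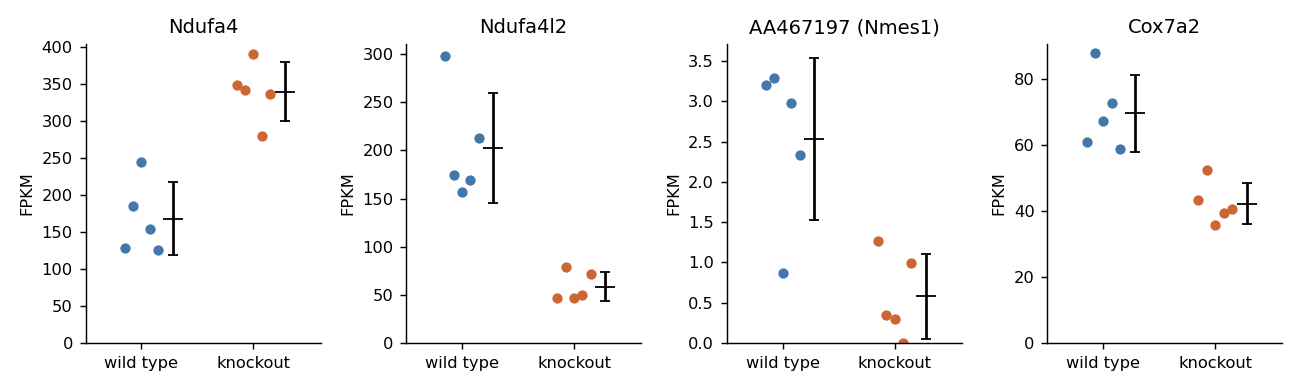
FPKM of Ndufa4, Ndufa4l2, AA467197 (Nmes1) and Cox7a2 in each library (points) with the mean and SD of 5 libraries per genotype, on separate linear axes from 0. Ndufa4 rises from 126 to 245 in wild type to 280 to 391 in knockout, Ndufa4l2 and Cox7a2 lie lower in every knockout library, and the AA467197 groups overlap.

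Cox7a2 and Atp5e were the other lower members. Cox7a2, the broadly expressed form of subunit VIIa of cytochrome c oxidase, was at 61.0, 87.9, 67.3, 72.7 and 58.6 FPKM in WT libraries and 43.4, 52.3, 35.7, 39.2 and 40.5 FPKM in KO libraries. The groups did not overlap, and the log2 fold change was -0.70 with a standard error of 0.14 (limma, adjusted p = 0.00599). Atp5e, the epsilon subunit of the catalytic F1 part of ATP synthase, was at 17.7, 19.8, 23.1, 25.9 and 15.4 FPKM in WT libraries and 13.7, 15.5, 11.6, 9.12 and 10.2 FPKM in KO libraries. Only WT5 fell within the knockout range, just below KO2, and the log2 fold change was -0.72 with a standard error of 0.16 (limma, adjusted p = 0.0151). Both calls were kept in 10 of 10 fits without 1 library and in 13 of 14 other settings, the marker covariate with Dcn again being the exception.

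The promoters of Ndufa4 and Atp5e are printed because these calls held under most settings, and that of Ndufa5 because it carries the NRF1 motif, found in 16 of 69 member promoters. They come from RefSeq (GRCm38.p6) and run from 250 bases before to 50 bases after the start, on the gene's strand. Capitals mark a match to 1 of 2 motifs: GCGCA, any base and GCGC for NRF1, a regulator of nuclear respiratory genes, and CCGGAAG for ETS factors such as GABPA (CTTCCGG on the other strand). The Atp5e window also holds the ESRRA letters once, in lower case. Ndufa4 is at chr6:11907401-11907700, minus strand. Atp5e is at chr2:174464052-174464351, minus strand, and Ndufa5 at chr6:24527477-24527776, minus strand.
Ndufa4: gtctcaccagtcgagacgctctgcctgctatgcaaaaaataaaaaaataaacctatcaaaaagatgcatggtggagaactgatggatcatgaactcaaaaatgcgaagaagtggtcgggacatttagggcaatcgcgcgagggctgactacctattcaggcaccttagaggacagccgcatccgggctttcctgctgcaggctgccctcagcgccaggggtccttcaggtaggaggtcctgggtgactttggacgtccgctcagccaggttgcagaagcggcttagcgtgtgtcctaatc
Atp5e: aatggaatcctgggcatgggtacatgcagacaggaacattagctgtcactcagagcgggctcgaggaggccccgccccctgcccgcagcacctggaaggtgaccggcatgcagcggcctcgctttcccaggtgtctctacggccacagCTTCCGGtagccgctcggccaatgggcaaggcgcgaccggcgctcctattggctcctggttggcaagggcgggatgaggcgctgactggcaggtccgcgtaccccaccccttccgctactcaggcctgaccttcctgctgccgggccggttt
Ndufa5: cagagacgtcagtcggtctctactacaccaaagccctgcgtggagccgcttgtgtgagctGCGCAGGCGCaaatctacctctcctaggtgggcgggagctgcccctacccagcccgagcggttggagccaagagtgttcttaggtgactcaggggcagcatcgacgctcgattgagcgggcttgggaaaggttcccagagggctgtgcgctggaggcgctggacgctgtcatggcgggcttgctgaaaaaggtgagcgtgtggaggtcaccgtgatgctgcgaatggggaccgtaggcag
A promoter was found for 69 of 90 nuclear symbols, and both strands were searched. The NRF1 letters occurred in 23.2% of the 69 and in 4.78% of 27025 mouse promoters, and the ETS letters in 23.2% and 9.12%. AAGATGG (YY1) occurred in 14.5% and 6.48%, AAGGTCA (ESRRA) in 11.6% and 4.66%, and ACGTG, the core of the hypoxia response element, in 26.1% and 19.7%. None of these letters occurred in the printed Ndufa4 window, nor in the windows of Cox7a2, Ndufc2 and Cox5b, which are not printed. The call of Cox7a2 held as often as that of Atp5e. The window of Ndufb6, also not printed, holds the ETS letters. Presence or absence of letters says nothing of the factors themselves.

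In complex I, 5 nuclear members rose. Ndufc2, a subunit of the membrane arm, was at 30.2, 42.3, 44.0, 42.7 and 29.0 FPKM in WT libraries and 52.2, 52.6, 55.5, 50.3 and 57.0 FPKM in KO libraries (log2 fold change 0.52, SE 0.13; limma, adjusted p = 0.0252). Ndufs1, the iron-sulfur subunit of the NADH-oxidising module, was at 11.9, 15.0, 15.7, 13.7 and 11.6 FPKM and then 20.6, 19.3, 16.6, 17.7 and 18.1 FPKM (log2 fold change 0.42, SE 0.11; limma, adjusted p = 0.0252). In both genes the groups did not overlap, and WT1 and WT5 were the lowest libraries. Ndufb6, another membrane arm subunit, went from 48.0 ± 8.21 to 66.8 ± 8.14 FPKM without overlap (limma, adjusted p = 0.0395), and Ndufa5, an accessory subunit of the matrix arm, from 18.4 ± 3.98 to 26.7 ± 3.57 FPKM with overlap (limma, adjusted p = 0.0415).

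The fifth call is uncertain in its source. Ndufs6b, listed as a processed pseudogene, was at 0.678 ± 0.374 FPKM in WT libraries and 1.76 ± 0.644 FPKM in KO libraries (limma, adjusted p = 0.0325), and 0.453 of its 31-base windows also occur in another gene, chiefly Ndufs6. Ndufs6, an accessory subunit near the iron-sulfur clusters, was at 46.2 FPKM on average in wild type and 56.7 FPKM in KO libraries. Ndufb6 shares 0.345 of its windows with other genes, chiefly Smim27. Ndufa8, an accessory subunit on the intermembrane side, had non-overlapping groups (46.2 ± 6.88 and 58.4 ± 4.85 FPKM) without passing the threshold (limma, adjusted p = 0.0767). The most abundant nuclear member of complex I by mean level, Ndufb11, was at 58.4 ± 12.7 and 69.1 ± 11.6 FPKM.

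In complex II, which oxidises succinate, Sdhd, the membrane anchor, was the most abundant member by mean level at 37.0 ± 7.48 FPKM in WT libraries and 47.8 ± 3.84 FPKM in KO libraries (log2 fold change 0.38; limma, adjusted p = 0.0888). In complex III, Uqcrq, a small accessory subunit, was at 30.1, 43.7, 42.9, 41.6 and 33.1 FPKM in WT libraries and 50.5, 51.5, 51.4, 47.7 and 55.0 FPKM in KO libraries. All knockout libraries lay above all wild-type libraries, and the log2 fold change was 0.42 with a standard error of 0.12 (limma, adjusted p = 0.0362). Uqcrfs1, the Rieske iron-sulfur protein, did not overlap between groups (56.4 ± 5.93 and 70.2 ± 5.20 FPKM) and missed the threshold (limma, adjusted p = 0.065). Uqcrb, the most abundant nuclear member of the complex, was at 102 ± 21.5 and 121 ± 2.93 FPKM.

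In complex IV, Cox5b, a zinc-binding nuclear subunit, was at 47.3, 58.0, 58.4, 59.98 and 46.8 FPKM in WT libraries and 68.7, 67.1, 77.2, 65.5 and 67.7 FPKM in KO libraries. The groups did not overlap, with KO3 highest, and the log2 fold change was 0.36 with a standard error of 0.11 (limma, adjusted p = 0.0454). The calls of Ndufa5, Ndufb6, Ndufc2, Ndufs1, Ndufs6b, Uqcrq and Cox5b were each lost without WT1, without WT5 and without KO5, and their adjusted p reached at most 0.0647 (Ndufc2) to 0.12 (Cox5b) in the fits that left out 1 library (limma).

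The isoforms of complex IV known from muscle, lung or testis were near or at 0. Cox6a2, Cox8b, Cox8c and Cox7b2 were listed at 0 in all 10 libraries. Cox4i2 reached at most 0.16 FPKM, Cox6b2 0.82 FPKM and Cox7a1 1.57 FPKM (KO1). Their broadly expressed partners were abundant in both groups: Cox4i1 at 118 ± 16.5 and 145 ± 13.2 FPKM, Cox6a1 at 165 ± 17.4 and 192 ± 17.4 FPKM, and Cox6b1 at 208 ± 44.0 and 251 ± 25.1 FPKM. Cox7b was at 82.7 ± 16.1 and 103 ± 10.2 FPKM and Cox8a at 169 ± 33.2 and 204 ± 19.98 FPKM (SD, n = 5). None of these 5 partners passed the threshold (limma, adjusted p from 0.125 for Cox4i1 to 0.217 for Cox6b1). All 5 had a positive log2 fold change, whereas that of Cox7a2 was negative.

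In complex V, Atp5a1, the alpha subunit of F1 and the most abundant nuclear member, was at 214 ± 21.4 and 224 ± 18.8 FPKM with a log2 fold change of 0.07 (limma, adjusted p = 0.739). The inhibitor of ATP hydrolysis by this enzyme, Atpif1, whose symbol is outside the rule, was at 59.0 ± 13.99 FPKM in WT libraries and 58.2 ± 9.87 FPKM in KO libraries. Beyond Atp5e, 16 tested nuclear members of this complex had a positive value; 0 passed, and 6 had an unadjusted p below 0.05 (limma).

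The 13 mitochondrial genes fell into separate ranges of level, as the plot in genome order shows. In 7 of them, mt-Nd1, mt-Nd2, mt-Nd4, mt-Nd5 and mt-Nd6 of complex I, mt-Cytb of complex III and mt-Co1 of complex IV, every library was between 1259.6 and 12849 FPKM. The other 6, mt-Co2, mt-Co3, mt-Atp6, mt-Atp8, mt-Nd3 and mt-Nd4l, were between 3.75 and 84.5 FPKM, although all lie on the same polycistronic strand as most of the abundant ones. For 5 of those 6, 0.981 to 1.00 of all 31-base windows also occur in another gene, chiefly the chromosome 1 copies Gm28661, Gm28437, Gm10925, Gm28438 and Gm10222; mt-Atp8 shares 0.0747. Sharing was 0.639 for mt-Co1 and 0.628 for mt-Nd4 and at most 0.168 for the other 5 abundant genes. Of these copies, Gm28661 was at 42.5 ± 4.08 FPKM beside mt-Co2 at 71.6 ± 8.50 FPKM in wild type, and Gm28437 was at 27.6 ± 2.77 FPKM beside mt-Co3 at 35.0 ± 2.25 FPKM. The sources used here do not give the authors' treatment of reads that fit several places. The levels of the 5 genes shared almost fully are uncertain, and in part those of mt-Co1 and mt-Nd4. Windows were searched in annotated transcripts alone, so copies outside them were not counted, and the low share of mt-Atp8 does not make its level certain.

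**Figure D4:**
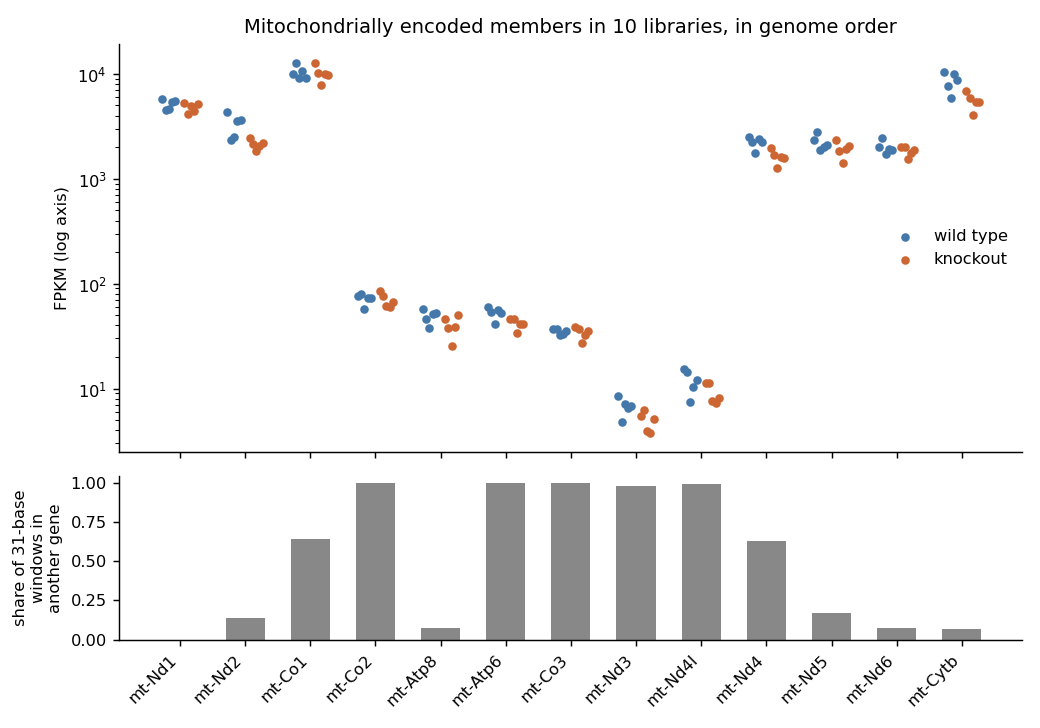
Upper panel: FPKM (log axis) of the 13 mitochondrially encoded members in each library, wild type beside knockout, in the order of the mitochondrial genome; lower panel: share of each gene's 31-base windows that also occur in another gene. The 5 genes with shares of 0.981 or more, and mt-Atp8, lie between 3.75 and 84.5 FPKM, and the other 7 lie above 1259 FPKM.

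Among the abundant mitochondrial genes the genotype difference was not even. mt-Cytb was at 10455, 7685, 5902, 10037 and 8739 FPKM in WT libraries and 6816, 5853, 4089, 5407 and 5359 FPKM in KO libraries. KO1 lay above WT3, so the groups overlapped, and the log2 fold change was -0.63 with a standard error of 0.20 (limma, adjusted p = 0.0558). mt-Nd2 was at 4349.7, 2354, 2487, 3566 and 3675 FPKM and then 2476, 2125, 1839, 2043 and 2188 FPKM, with KO1 above WT2 (log2 fold change -0.59, SE 0.19; limma, adjusted p = 0.0587). mt-Nd4 was at 2513, 2256, 1757, 2421 and 2221 FPKM and then 1959, 1695, 1259.6, 1625 and 1583 FPKM, with KO1 above WT3 (log2 fold change -0.46, SE 0.16; limma, adjusted p = 0.0701). These 3 genes passed under some alternatives, mt-Cytb and mt-Nd2 in 6 and mt-Nd4 in 5.

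The other abundant mitochondrial genes differed less. mt-Co1, the catalytic subunit of cytochrome c oxidase, was at 10313 ± 1459 FPKM in WT libraries and 10141 ± 1810 FPKM in KO libraries (log2 fold change -0.03; limma, adjusted p = 0.927). mt-Nd1 was at 5166 ± 545 and 4790.3 ± 472 FPKM, mt-Nd5 at 2217 ± 346 and 1921 ± 339 FPKM, and mt-Nd6 at 2005 ± 264 and 1832 ± 199 FPKM, with log2 fold changes of -0.11, -0.21 and -0.13. mt-Nd6 is the only one of the 13 on the other strand, and the use of strand in counting is not given in the sources used here. Of the less abundant genes, mt-Atp6 had a log2 fold change of -0.33 (limma, adjusted p = 0.0947), mt-Atp8 -0.32, mt-Nd3 -0.39 and mt-Nd4l -0.34, and mt-Co2 and mt-Co3 -0.04 and -0.05. Among the alternatives, mt-Atp6 passed in 3 and mt-Nd3 in 2.

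As a share of summed FPKM, the 13 genes took 9.85%, 8.38%, 6.95%, 9.27% and 8.51% in the wild-type libraries and 8.47%, 6.79%, 5.78%, 6.84% and 6.96% in the knockout libraries. The means were 8.59% ± 1.09 and 6.97% ± 0.965 (SD, n = 5), and the groups overlapped, since KO1 lay above WT2 and WT3. Per fragment the share was 4.24% ± 0.469 and 3.56% ± 0.528. All 91 nuclear members, tested or not, took 1.01% ± 0.107 and 1.14% ± 0.0729 of summed FPKM.

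The lowest mitochondrial levels were in KO3, which held the minimum for 9 of 13 genes. Without KO3 the mitochondrial median was -0.18 with 10 of 13 genes negative. A score of 5 clock output genes was 3.33 ± 0.902 in wild type and 2.41 ± 1.02 in knockout, and with it as a covariate the mitochondrial median was -0.11, again with 10 of 13 negative, while the nuclear median was 0.28. With the marker score as the covariate the mitochondrial median was -0.11 and the nuclear median 0.12, and with the score without Dcn they were -0.38 and 0.23.

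Copies also limited what could be said of some nuclear members. Ndufs5 was at 8.87, 9.20, 23.0, 10.0 and 0.35 FPKM in WT libraries and 0.62, 0.74, 0.59, 0.51 and 0.15 FPKM in KO libraries, and did not reach the filter. Ndufs5-ps, whose coding sequence is printed above, was at 30.1, 34.6, 2.18, 28.1 and 52.4 FPKM in WT libraries and 66.0, 88.2, 79.1, 58.1 and 65.0 FPKM in KO libraries. The library with the most Ndufs5, WT3, had the least of the copy. The sum of both was 25.2 to 52.8 FPKM in WT libraries and 58.6 to 88.9 FPKM in KO libraries. FPKM is scaled by each gene's own length, so this sum is not a count of reads. It may shift with the gene to which reads were assigned, and a rise of the RNA itself was not tested.

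Cox7a2l and Gm6969 varied widely within each genotype. Cox7a2l was at 49.2, 103, 40.9, 70.1 and 49.5 FPKM in WT libraries and 77.8, 74.3, 33.4, 43.7 and 36.8 FPKM in KO libraries (log2 fold change -0.24, SE 0.30; limma, adjusted p = 0.631). Gm6969 was at 45.2, 9.51, 97.0, 7.06 and 2.49 FPKM and then 4.92, 66.1, 67.7, 80.3 and 92.8 FPKM. WT2 and KO1, the highest for Cox7a2l, were at 9.51 and 4.92 FPKM for the copy, whereas WT5 was low in the copy without being high in Cox7a2l and KO2 was high in both (74.3 and 66.1 FPKM).

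**Figure D5:**
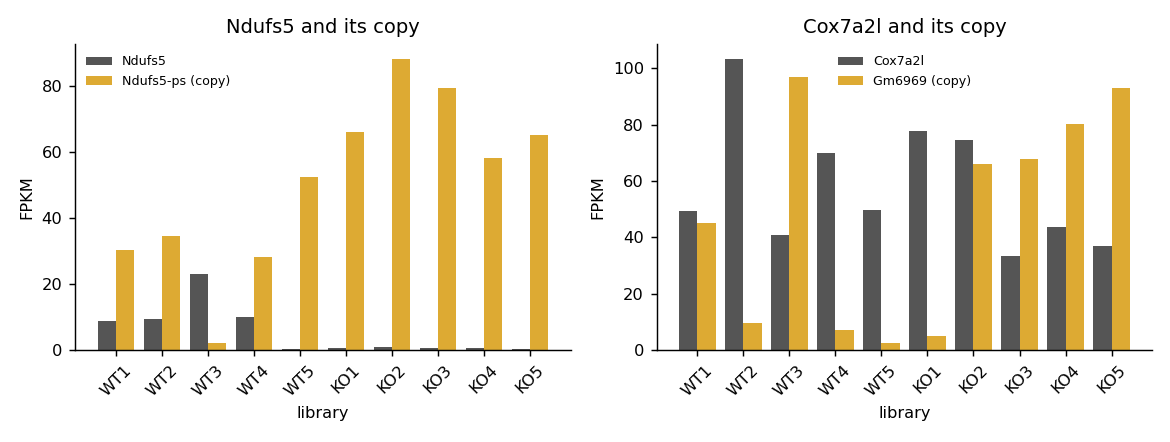
FPKM of Ndufs5 and Cox7a2l (grey bars) and of their copies Ndufs5-ps and Gm6969 (yellow bars) in each library. Ndufs5 exceeds its copy only in WT3 (23.0 against 2.18 FPKM), and the Gm6969 bars range from 2.49 to 97.0 FPKM in wild type alone.

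Genes that assemble, supply and express the chain were taken as 12 lists with 161 symbols, of which 160 were found and 149 tested. Of these 20 were higher and 1 lower in knockout (14.1%, against 12.9% of all genes), with a median log2 fold change of 0.19. The lists were chosen with earlier results of these data known. Over all genes tested 7.9% were higher and 4.96% lower, and the counts within single lists below stand beside these shares.

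Among assembly factors, 2 of 16 tested for complex I rose: Ndufaf4 from 5.55 ± 1.13 to 8.71 ± 0.882 FPKM (limma, adjusted p = 0.0121) and Ndufaf2 from 2.92 ± 0.312 to 3.90 ± 0.384 FPKM (limma, adjusted p = 0.04999), of which Ndufaf2 shares 0.651 of its windows with another gene, chiefly B230220B15Rik. For complex IV 2 of 22 rose: Cox18, which inserts subunit II into the membrane, from 1.82 ± 0.476 to 3.55 ± 0.490 FPKM without overlap (limma, adjusted p = 0.00512), and Coa3, an early assembly factor, from 21.1 ± 2.98 to 31.4 ± 5.32 FPKM. None of 3 tested factors of complex II, 5 of complex III or 5 of complex V passed, and 1, 0 and 1 of them had an unadjusted p below 0.05 (limma). Ndufab1, the acyl carrier protein in complex I, Cyc1, cytochrome c1, and Cycs, cytochrome c, did not pass either (limma, adjusted p = 0.161, 0.29 and 0.084).

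In coenzyme Q synthesis, 3 of 13 rose, Pdss1, Coq5 and Coq10b, with log2 fold changes of 0.56, 0.50 and 0.59. Of 31 tested genes of mitochondrial DNA and RNA handling, 4 rose: Pnpt1, an RNA-degrading enzyme, from 8.99 ± 1.25 to 14.8 ± 1.61 FPKM (limma, adjusted p = 0.00277), the translation factor Gfm1, and the RNA-binding proteins Fastkd5 and Slirp. The last of these are uncertain in their source, since 0.649 of the windows of Fastkd5 and 0.941 of those of Slirp also occur in another gene, chiefly Ubox5 and Snw1. Of 20 genes of pyruvate entry and the citric acid cycle, 5 rose: Idh3a, Idh3g, Mdh2, Dlst and Pdhx. The enzyme subunit Idh3a was highest in fold, from 11.3 ± 2.02 to 19.9 ± 2.31 FPKM (limma, adjusted p = 0.00254). Of 21 carriers and import factors, Chchd4, Hspa9, Tomm70a and the phosphate carrier Slc25a3 rose, with log2 fold changes of 0.57, 0.48, 0.43 and 0.46. Of 10 tested regulators of mitochondrial biogenesis, only Ppara, a nuclear receptor for fatty acids, changed, falling from 4.24 ± 0.532 to 2.17 ± 0.650 FPKM without overlap (limma, adjusted p = 0.00518).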

How the data were processed

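RNA-seq was measured in 10 libraries, grouped by the genotype in the labels. The authors deposited one FPKM table with 2 decimals. The build was mm9 and the tools were HTSeq 0.6.1, HISAT2 2.0.1 and cutadapt, per the submitters' processing notes. How strand, multiply placed reads and the scaling total were handled is not given in the sources used here. Members and gene lists were chosen with earlier results of these data known.

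Values were tested as log2(FPKM + 1), which understates changes of low genes, for 11386 genes reaching 1 FPKM in 5 or more libraries. limma 3.58.1 (R 4.3.3) was fitted to genotype alone, with trend and robust empirical Bayes and Benjamini-Hochberg adjustment. Depth was estimated from FPKM of single-exon genes, as the total at which most values were whole fragments beyond chance. At that total 97.2% to 98.6% were whole within 0.01 plus the rounding error of the value, against 9.4% to 11.2% by chance. Shared 31-base windows were counted in GENCODE M21 (GRCm38), where 52073 of 56691 gene IDs were found; copies were matched by gene ID. Python 3.11.15, numpy 2.4.6, pandas 2.3.3 and matplotlib 3.10.9 were used. The fit was tested on simulated data.

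Named were all mitochondrial members, all members past the threshold or without overlap, the most abundant per complex, tissue isoforms with their partners, Cox7a2l, Atpif1, up to 4 per list by smallest p, and the targeted genes. Ndufs5, Ndufs6, Idh3g, AA467197 and the copies were chosen after their values were seen. Alternatives changed the pseudocount, filter, scaling, variance model, sample weights, replicate block, covariates, threshold and libraries used; leaving out WT1 with WT5, the marker score without Dcn, and the share per fragment were added after seeing the data. Replicate numbers were not taken as pairs.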

Additional observations from a re-analysis of the deposited data

Results flagged for a closer look

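Cox5b in knockout was the single value set of 80 groups examined in which 1 library stood apart: KO3, at 77.2 FPKM, was separated from the other 4 (65.5 to 68.7 FPKM) by 0.722 of the group's range, above the limit of 0.71 for 5 samples. Chance sets about 5 in 100 groups apart in this way.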

How the results depend on the processing

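Members higher (8) and lower (3) and genes higher (900) and lower (565) depended on the settings. Members higher were 1 with no filter, 4 with median ratios, 3 with quantile normalization, 5 when nuclear genes set the total, 23 with sample weights, 0 with the marker covariate, 4 with that covariate without Dcn, 4 with the clock covariate, 1 and 21 at thresholds of 0.01 and 0.1, and 1 without WT1 and WT5. Members lower were 7 with median ratios, 6 without trend and robust estimation, 7 with sample weights, 1 with the marker covariate and 7 at 0.1. Leaving out 1 library gave 1 to 20 higher and 3 to 7 lower members.

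Genes higher were 511 with no filter, 1390 with sample weights, 118 with the marker covariate, 237 without WT1 and WT5, 293 at 0.01, 1533 at 0.1 and 436 to 1091 without 1 library. Genes lower were 329 with a filter at 5 FPKM, 93, 219, 245 and 887 under the last-named settings in that order, and 357 to 679. The higher share of called genes was 61.4%, 46.6% with median ratios, 47.9% with quantile normalization and 51.4% with the nuclear total.

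Same-numbered libraries correlated at 0.06, 0.42, 0.19, -0.24 and 0.11 in their deviations from group means, so the numbers were not taken as pairs, and WT2 alone correlated best with its own number. With the replicate block, 4 members were higher and 6 lower (773 and 551 genes).

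The mitochondrial median of -0.32 became -0.11 with the marker covariate and -0.11 with the clock covariate, and lay between -0.37 and -0.18 without 1 library; the nuclear median lay between 0.18 and 0.31. The knockout-minus-wild-type difference in the share of summed FPKM was -1.62 percentage points.

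Of the named members, 6 changed sign under some setting. Cox7a2l (-0.24) was 0.1291 with the marker and 0.1442 with the clock covariate. Atp5a1 was -0.0032 with median ratios, -0.0825 with quantile normalization, -0.0953 with the marker covariate and -0.0185 without WT1 and WT5. mt-Co1 was 0.00 with quantile normalization, 0.0212 with sample weights, 0.0761 with the marker and 0.105 with the clock covariate, and -0.1218 to 0.0598 without 1 library, above 0 without WT2 or KO3. mt-Co2 was 0.1113 and 0.1123 with these covariates, 0.0018 without WT1 and WT5, and -0.1189 to 0.0099 without 1 library, above 0 without KO3 or KO4. mt-Co3 was 0.0635 and 0.028 with them and -0.09 to 0.0268 without 1 library, above 0 without KO3, and mt-Nd6 was 0.0844 with quantile normalization. The cause was not tested. Among the alternatives' values of 36 named members, 719 kept direction and side of the threshold, 94 were no longer past it and 29 newly past it. With 5 libraries per genotype and no counts, low members have little precision.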

Other observations

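The mitochondrial ribosomal RNAs, which lie upstream of the protein-coding genes on the same strand, had positive values. mt-Rnr1 was at 278, 411, 422, 313 and 257 FPKM in WT libraries and 587, 579, 421, 543 and 486 FPKM in KO libraries. Only KO3 and WT3 overlapped, and the log2 fold change was 0.66 with a standard error of 0.17 (limma, adjusted p = 0.0267). mt-Rnr2 was at 353 ± 102 and 491 ± 94.2 FPKM and missed the threshold (limma, adjusted p = 0.157). How ribosomal RNA was removed from these libraries is not stated in the labels.

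Of 7 copies of nuclear members outside the rule, chosen after their values were seen, 2 rose. Over all genes tested 7.9% were higher. Other abundant copies, such as Gm10039 of Atp5g1, were not included, so the count is no share of copies in general. Ndufa12-ps on chromosome 5 was at 43.5 ± 12.3 FPKM in WT libraries and 83.3 ± 7.82 FPKM in KO libraries (log2 fold change 0.96; limma, adjusted p = 0.00385), and Cox5b-ps on chromosome 13 at 16.5 ± 3.15 and 26.5 ± 5.13 FPKM (log2 fold change 0.65; limma, adjusted p = 0.0173), both without overlap. Gm10250, a copy of Atp5h on chromosome 15, was at 61.6 ± 10.9 and 67.9 ± 10.3 FPKM (limma, adjusted p = 0.535), and Gm10221, Gm6969, Cox7c-ps1 and Ndufs5-ps did not pass either (limma, adjusted p = 0.468, 0.391, 0.61 and 0.118). Cox5b, the source of one of these copies, was the least stable of the 8 higher members, with its call kept in 2 of 10 fits that left out 1 library, as was that of Ndufs6b.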
